A study of Mus musculus with 15 samples.

Results

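The genes described here are the members of developmental transcription factor families that the deposited mouse expression table lists: the Hox, Dlx, Irx, Msx, Nkx, Meis, Pbx, Pax, Fox, Sox, Gata and Tbx families and the family of Six4. They were chosen by a rule on names that used no measured value, among gene names that start with a family name followed by a digit (with a letter a to d between for Hox), or by a letter and a digit for the Fox family. The genes analysed numbered 85 of the 14392 in the table, and 84 of them were protein-coding genes out of 171 in RefSeq under the same rule. The remaining name, Msx1as, is an antisense transcript of the Msx1 locus.

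These families encode proteins that bind DNA through a homeodomain, a forkhead, an HMG box, zinc fingers, a paired domain or a T-box, and that set body axis, organ and cell identity after implantation. In embryonic stem cells many of them are textbook targets of Polycomb group complexes, which keep them silent and mark their chromatin with ubiquitin on histone H2A and methylation on histone H3. Usp16 is a deubiquitinase that removes ubiquitin from histone H2A, so the members' levels without maternal Usp16 are of interest at the time the embryo starts its own transcription.

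RNA was measured by Smart-seq2, an oligo-dT primed full-length method for small inputs, in zygotes and 2-cell embryos from wild-type mothers and from mothers that lacked Usp16 in their oocytes. Each of the 4 groups had 2 libraries, and each library was made from 10 pooled embryos whose zona pellucida had been removed with acid. The mothers of both genotypes were superovulated C57BL/6 females aged 21 to 23 days, and all of them were mated with wild-type males. Wild-type mothers (WT) were Usp16+/+, and knockout mothers (cKO) were Usp16 fl/fl;Gdf9-Cre, in which Cre is active in oocytes from the primordial follicle stage. The cKO embryos therefore lacked the maternal copy and carried an intact paternal one. By this description the WT group carried neither the floxed alleles nor Cre, so an effect of these alleles themselves cannot be told apart from the loss of Usp16.

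The values were FPKM, with every value under 1 raised to 1, which is called the floor here, and genes that never passed 1 left out of the table. A member at the floor was therefore not detected above 1 FPKM, and a family gene that the table does not list was not analysed. A member listed only through the group in which it is high had to differ between groups, so the counts below describe the listed members and are no measure of their families. The read depth is unknown, since the table holds no counts. The FPKM values summed to 592286 and 557515 in the WT zygote libraries, 593317 and 580297 in cKO zygotes, 577483 and 547752 in WT 2-cell embryos, and 582343 and 770989 in cKO 2-cell embryos.

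Usp16 itself stood at 184 and 187 FPKM in WT zygotes and at 16.8 and 22.0 FPKM in cKO zygotes. In 2-cell embryos it measured 168 and 183 FPKM in WT and 168 and 84.8 FPKM in cKO. The loss was thus visible in zygotes. At the 2-cell stage both cKO libraries also lay below both WT libraries, replicate 1 only by a narrow margin. A Usp16 level per gene does not separate the maternal from the paternal copy.

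The cKO 2-cell libraries stood apart from the other groups before any member was considered. Between them, 1912 of 14392 genes were over 3-fold apart, against 199 between the WT 2-cell libraries, 41 between the WT zygote libraries and 20 between the cKO zygote libraries. Spearman's correlation of the replicates, taken over genes and so not over independent units, was 0.886 in cKO and 0.963 in WT 2-cell embryos. Among the members, 7 were over 3-fold apart between the cKO 2-cell replicates and 2 between the WT 2-cell replicates.

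The spacing of the lowest FPKM values allowed a depth relative to the first WT library of each stage to be estimated, although not the depth itself. It came to 0.983 for the other WT 2-cell library and to 0.670 and 0.755 for the cKO 2-cell libraries. The value of 0.670 was found from 7 of 8 starting libraries, and the other gave a value larger by a factor of 2. In zygotes the estimates were 0.805 for the other WT library and 0.805 and 0.705 for the cKO libraries, found from 6, 7 and 6 of 8 starting libraries in that order. The number of genes at the floor was 1642 and 1716 in WT 2-cell libraries and 3684 and 4240 in cKO 2-cell libraries, and the part of depth in the results below was not tested.

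In WT zygotes most listed members were silent as far as the table shows. Both libraries were at the floor for 59 of 85 members, 69.4%, against 29.2% of all genes. In cKO zygotes the count was 58 of 85, against 27.9% of all genes, and 57 members were at the floor in all 4 zygote libraries. The zygotes' RNA is largely of maternal origin. Of the 22 Fox members 10 were at the floor in all 4 zygote libraries, of the 15 Hox members 13 were, and of the 3 Pbx members 0 were.

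By the 2-cell stage few members were at the floor in WT embryos, a share near that of all genes. The number of members at the floor was 10 and 13 in the WT 2-cell libraries, and 5 of 85 were at the floor in both, against 6.78% of all genes. In cKO 2-cell embryos 50 and 55 members were at the floor, and 43 of 85 were at the floor in both libraries, against 19.5% of all genes. Of the 85 members 38 are in the table only through a WT 2-cell library, which fixes their detection there. Levels of the members in WT 2-cell embryos were low, with a median of 2.74 and 2.59 FPKM in the WT libraries.

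**Figure D1:**
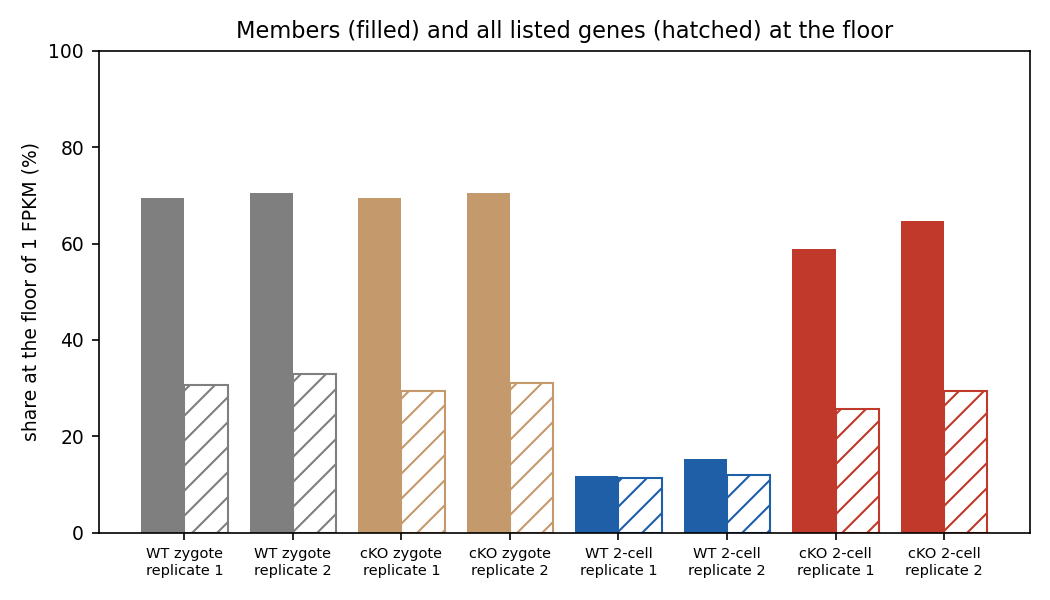
Share in percent of the 85 listed members (filled bars) and of all 14392 genes (hatched bars) at the floor of 1 FPKM in each of the 8 libraries, coloured by group. The WT 2-cell libraries have 10 and 13 members at the floor, and the cKO 2-cell libraries 50 and 55.

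Whether silent members became detectable without maternal Usp16 was asked by comparing the libraries at the floor. Of the listed members 1, Sox21, was at the floor in both WT 2-cell libraries and above it in both cKO 2-cell libraries, against 0.417% of all genes, and with replicate 1 of cKO left out the count was 4. The opposite, floor in both cKO libraries and above it in both WT libraries, held for 29 of 85 members, against 8.78% of all genes. Of the 29, however, 27 were at the floor in all zygote libraries too, and so are in the table only through WT 2-cell embryos. They were 27 of 42 such members above the floor in both WT libraries, 64.3% against 21.9% of all such genes. Of the 25 members above the floor in both WT libraries and in a zygote library, 2 were at the floor in both cKO libraries, 8.0% against 7.42% of all such genes, a share near that of the table. Above the floor in at least 1 library of WT 2-cell embryos and in no other group were 38 members, and 4 in cKO 2-cell embryos alone. Only in zygotes, with both genotypes pooled, was 1, Sox6. The 38 made up 44.7% of the members, against 8.41% of all genes, the 4 made up 4.71% against 2.12%, and the 1 made up 1.18% against 3.92%.

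The members seen in cKO 2-cell embryos alone included Foxe1, Hoxd9 and Sox21, of which Foxe1 and Sox21 were chosen after their values were seen. Sox21, a gene of the developing nervous system, measured 3.52 and 2.32 FPKM in the cKO 2-cell libraries and stood at the floor in the other 6. Foxe1, needed for thyroid development, measured 2.02 FPKM and Hoxd9, a limb and trunk gene, 1.79 FPKM, each in replicate 2 of cKO and at the floor in replicate 1. Sox21 was thus the member of these 3 present in both replicates.

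The first comparison between stages asked which members WT embryos gained by the 2-cell stage. By the fold rule used here, which calls a gene when the group means of 2 libraries lie over 3-fold apart, 25 of 85 members were higher in WT 2-cell embryos than in WT zygotes, against 26.0% of all genes. In the same comparison 4 members were lower, against 8.78% of all genes. The share of members called higher was thus near that of the table. With limma on log2(FPKM + 1) and a Benjamini-Hochberg adjusted p under 0.05, 41 members were higher, against 34.2% of all genes, and 7 were lower, against 15.5%. After median-ratio scaling, which divides each library by the median of its ratios to a common reference, the fold rule gave 15 higher and 6 lower. Without WT zygote replicate 1 or replicate 2, limma gave 26 and 25 higher. Shares of all genes are not given for these alternatives, so their counts are not set against the table. The p-values from limma measure the spread between libraries.

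Gata1, which directs red blood cell development, was at the floor in all 4 zygote libraries and measured 33.3 and 24.1 FPKM in WT 2-cell embryos. Its mean there was at least 28.7-fold higher than in WT zygotes, and higher in 2 of 2 libraries, with a log2 difference of 3.88 and an adjusted p of 0.000131 in limma with Benjamini-Hochberg. Tbx3, a T-box gene of limb and heart development, went from the floor to 15.0 and 16.8 FPKM, at least 15.9-fold higher. In both genes no zygote library reached a WT 2-cell library. Both are in the table only through 2-cell libraries, so a fall from the zygote could not be seen. Their zygote groups have no measured spread, so the standard error behind the p of Gata1 is too small.

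Some members were already present in zygotes and higher at the 2-cell stage. Sox15, a Sox gene active in muscle precursors, measured 10.9 and 4.72 FPKM in WT zygotes and 75.0 and 52.9 FPKM in WT 2-cell embryos. Its mean was 8.19-fold higher, in 2 of 2 libraries, with a log2 difference of 2.96 and an adjusted p of 0.00264 in limma with Benjamini-Hochberg. Foxr1, a forkhead gene, measured 44.0 and 27.8 FPKM in WT zygotes and 142 and 90.2 FPKM in WT 2-cell embryos. The stages did not overlap.

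The 4 members lower in WT 2-cell embryos than in zygotes were Meis2, Tbx4, Gata3 and Pax2. Meis2, a homeodomain partner of Hox proteins, was the most abundant of them, with 274 and 266 FPKM in WT zygotes and 47.9 and 77.1 FPKM in WT 2-cell embryos. Tbx4, a hindlimb gene, measured 30.4 and 28.2 FPKM in WT zygotes and 6.52 and 7.38 FPKM in WT 2-cell embryos. In all 4 genes the stages did not overlap.

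Gata3, a regulator of trophoblast and T cells, measured 21.7 and 24.6 FPKM in WT zygotes against 3.16 and 4.05 FPKM in WT 2-cell embryos. Pax2, needed for kidney development, measured 7.73 and 5.98 FPKM against 2.07 and 1.66 FPKM. In limma with Benjamini-Hochberg the log2 differences were -2.39 for Gata3 and -1.45 for Pax2, lower in 2 of 2 libraries each, with adjusted p of 0.000676 and 0.00383.

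In zygotes no listed member was called different between the genotypes. By the fold rule 0 of 85 were lower and 0 higher in cKO than in WT zygotes, against 0.0486% and 0.104% of all genes, and 1 was lower without cKO replicate 2 and without WT replicate 2. With limma, 0 were lower and 0 were higher, against 0.0% and 0.0208% of all genes, and at an unadjusted p under 0.05 limma gave 1 lower and 0 higher. A p over the threshold does not show that the levels were equal. Meis2, for example, measured 274 and 266 FPKM in WT and 249 and 238 FPKM in cKO zygotes.

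At the 2-cell stage more members were called lower than higher in cKO embryos, under each of the 3 scalings used. The means were over 3-fold lower for 24 of 85 members, 28.2%, against 13.5% of all genes, and over 3-fold higher for 0, against 2.84%. In limma with Benjamini-Hochberg 42 members were lower, against 24.6% of all genes, and 2 were higher, Gata1 and Sox21, against 6.16%. Of the 24 members lower by the fold rule 22 were also lower in limma, and 23 had no overlap between the libraries of the groups, all but Foxi3. The same shares among all genes called lower are not given, so these 2 counts are not set against the table. Without cKO replicate 2 the fold rule gave 2 higher members, and without WT replicate 1 it gave 1, while without cKO replicate 1 or 2 limma gave 5 and 4 higher. In bulk libraries, fewer cells with a transcript and less of it per cell cannot be told apart.

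The count depended on the scaling. As deposited, cKO 2-cell embryos had a median log2 ratio to WT of -0.93 over the members and -0.38 over all genes. After median-ratio scaling, which moved the median of all genes to 0.0, the members' median was -0.46. Of the members 11 were then lower and 2, Gata1 and Sox13, higher, beside 905 lower and 993 higher of all 14392 genes, and the 11 were among the 24. Scaling each library to the same sum gave 24 lower and 0 higher. Of all genes called, 82.6% were lower with deposited values, 47.7% with median-ratio scaling and 90.7% with sum scaling.

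The limma calls rested in part on all 8 libraries being in 1 model. With the 4 2-cell libraries alone limma gave 0 lower and 0 higher members at the adjusted threshold. At an unadjusted p under 0.05 it gave 41 members lower and 2 members higher. No share of all genes is given for this fit, so these counts are not compared with the table. Members at the floor in both libraries of a group have no measured spread there, so their standard errors are too small. With 2 libraries against 2 an exact two-sided permutation test cannot go below p = 0.333.

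**Figure D2:**
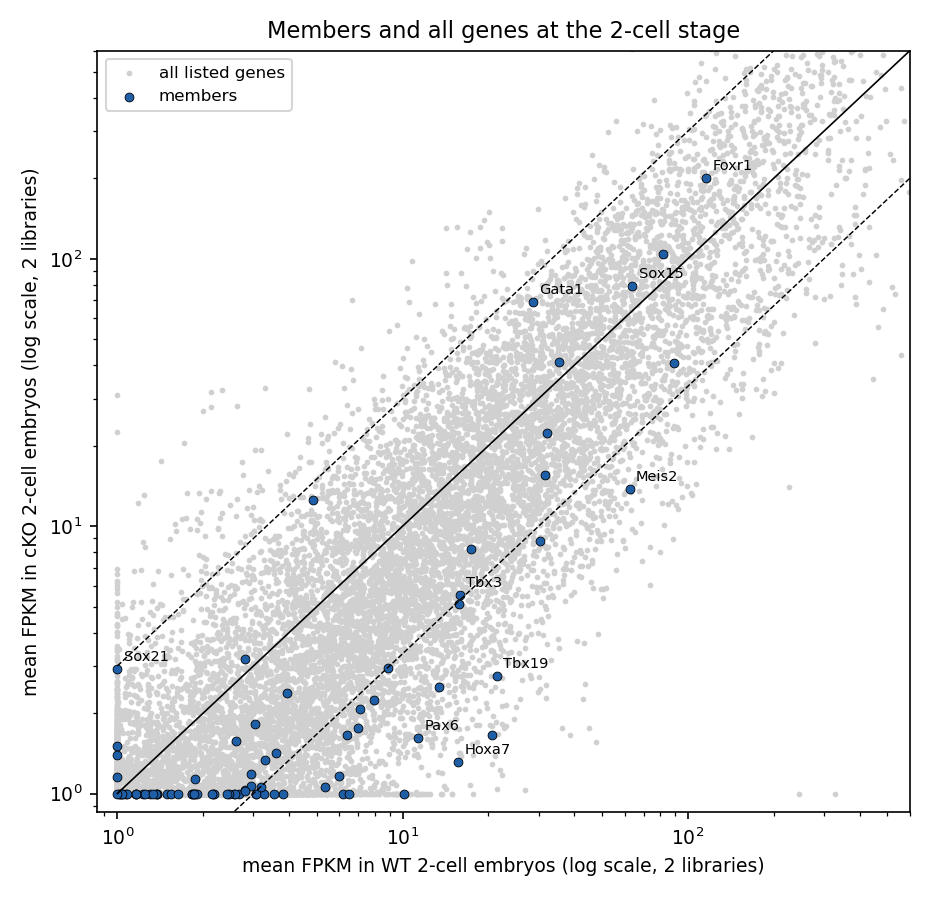
Mean FPKM of each listed member in WT 2-cell embryos on the x axis and in cKO 2-cell embryos on the y axis, both on log scales, with all listed genes in grey, equality as a solid line and 3-fold differences as dashed lines. Of the 85 members, 24 lie over 3-fold below equality and 0 over 3-fold above it as deposited, and 11 and 2 after median-ratio scaling.

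The level in WT embryos set how many members could be called lower, because of the floor. Of the 41 members with a WT 2-cell mean from 1 to 3 FPKM, none could pass the fold rule. Of the 20 members from 3 to 10 FPKM, 15 were lower in cKO, 75.0% against 25.2% of all genes in that range. Of the 19 members above 10 FPKM, 9 were lower, 47.4% against 16.7%. Among those at the floor in all zygote libraries 11 of 14 and 2 of 4 were lower in the 2 ranges, against 26.2% and 20.6% of all such genes, and among the others 4 of 6 and 7 of 15, against 24.8% and 16.3%. The share of lower members was thus above that of the table in both ranges in which the rule can call a gene, with few members in each.

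Where every 2-cell library was above the floor as deposited, no ratio of deposited values is bounded by it. After scaling, values under the highest scaled floor were raised to it, so ratios of genes at low levels can still be bounded. The median log2 ratio was -1.33 over 22 members and -0.31 over 9086 genes, as deposited. After median-ratio scaling the medians were -0.88 and 0.16, and after sum scaling -1.56 and -0.53. The members' median was thus below that of all genes under each of the 3 scalings.

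Detection of members that were silent in zygotes was compared between single libraries. Of 49 members at the floor in all zygote libraries and above it in WT 2-cell replicate 1, 42 were above it in replicate 2, 85.7% against 84.3% of all such genes. In the cKO 2-cell libraries 13 and 8 of the 49 were above it, 26.5% and 16.3%, against 60.9% and 57.0% of all such genes. Starting from cKO replicate 1, 14 such members were above the floor, of which 13, or 92.9%, were above it in each WT library, against 89.2% and 88.8% of all such genes. From cKO replicate 2 they numbered 12, of which 8, or 66.7%, were above the floor in each WT library, against 86.6% and 85.5% of all such genes. Between the cKO libraries 7 members were shared, 50.0% of those in replicate 1 and 58.3% of those in replicate 2, against 73.1% and 75.8% of all such genes. These counts of members are small, and the difference between the shares was not tested.

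The Hox genes, which pattern the head-to-tail axis, were listed with 15 of 39 genes. Of the 15 listed, 14 had a lower mean in cKO than in WT 2-cell embryos as deposited and after sum scaling, and 9 after median-ratio scaling. A lower mean was also common among all genes as deposited. It held for 78.4%, 75.7% and 61.9% of them at WT 2-cell means from 1 to 3, from 3 to 10 and above 10 FPKM. The fold rule called 6 lower with deposited values, 2 with median-ratio scaling and 4 with sum scaling, beside 1940, 905 and 2413 of all 14392 genes in that order. At the floor in both cKO 2-cell libraries were 12, beside 19.5% of all genes. All but Hoxd13 of these 12 are in the table only through a WT 2-cell library, which fixes their detection there. Of the 15 Hox members 13 were at the floor in all zygote libraries, beside 26.2% of all genes. No Hox member was above the floor in both cKO 2-cell libraries, whereas 10 were above it in both WT 2-cell libraries. For these 2 counts no share of all genes is given, so they are not set against the table and are no measure of the family.

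Hoxa7, a gene of trunk vertebra identity at chr6:52164490-52171853 of mm9 on the minus strand, was present in zygotes. It measured 23.4 and 29.7 FPKM in WT zygotes and 32.1 and 24.6 FPKM in cKO zygotes. In 2-cell embryos it measured 11.7 and 19.7 FPKM in WT and 1.62 and 1.0 FPKM in cKO, the last at the floor. Its mean was at least 12.0-fold lower in cKO, and limma with Benjamini-Hochberg gave a log2 difference of -2.82 with a standard error of 0.32 and an adjusted p of 0.003, lower in 2 of 2 libraries. The genotypes thus overlapped in zygotes and did not overlap at the 2-cell stage.

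Of the other Hox members called lower, Hoxa3, Hoxb2, Hoxd1 and Hoxd8 had low levels in WT. Hoxa3, active in pharyngeal arch derivatives, measured 3.81 and 2.29 FPKM in WT 2-cell embryos, Hoxb2, a hindbrain gene, 2.0 and 4.54 FPKM, and Hoxd1 2.82 and 3.32 FPKM, all with cKO at the floor. Their means were at least 3.05-fold, 3.27-fold and 3.07-fold lower in cKO. Hoxd8 measured 4.19 and 2.19 FPKM in WT and 1.0 and 1.11 FPKM in cKO. None of these 4 calls by the fold rule held after median-ratio scaling, where the log2 ratios were -0.97 for Hoxa3, -1.07 for Hoxb2, -0.98 for Hoxd1 and -0.96 for Hoxd8. Leaving out 1 WT library also ended each call, with log2 ratios of -1.19 for Hoxa3 and -1.06 for Hoxd8 without replicate 1, and -1.0 for Hoxb2 and -1.50 for Hoxd1 without replicate 2. For Hoxd8 the call was also lost without cKO replicate 1, at -1.52. The annotated span of Hoxa3 overlaps those of Hoxa2 and Hoxa5 on the same strand, so reads in the shared part cannot be told apart.

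The 9 Hox members not called by the fold rule were near the floor at the 2-cell stage. Hoxb9 measured 2.11 and 2.26 FPKM and Hoxb13 1.91 and 1.74 FPKM in WT 2-cell embryos, and both were at the floor in cKO. Hoxa5 measured 1.35 and 1.11 FPKM and Hoxc10 1.41 and 1.09 FPKM in WT, again with cKO at the floor. Hoxa2, Hoxa9, Hoxa10 and Hoxd13 were above the floor in 1 WT 2-cell library each, at 1.09, 1.33, 1.33 and 1.66 FPKM. Hoxd9 was the exception, at the floor in WT and at 1.0 and 1.79 FPKM in cKO.

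Of other homeodomain members, Dlx3 and Nkx6-2 passed the fold rule under each of the 3 scalings, and Six4 and Dlx2 under none. Six4, a gene of muscle development, measured 2.59 FPKM in both WT 2-cell libraries and was at the floor in cKO. Dlx3, a gene of placenta and skin, measured 6.98 and 5.36 FPKM in WT 2-cell embryos and was at the floor in cKO, at least 6.17-fold lower. Dlx2, a gene of forebrain interneurons, measured 2.74 and 2.62 FPKM in WT and was at the floor in cKO. Nkx6-2, a neural tube gene, was present in zygotes, at 3.49 and 3.04 FPKM in WT and 2.85 and 3.12 FPKM in cKO. At the 2-cell stage Nkx6-2 measured 10.8 and 16.0 FPKM in WT and 3.91 and 1.08 FPKM in cKO, and was 5.36-fold lower by the means.

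Msx1as was at the floor in all zygote libraries. It measured 6.08 and 5.88 FPKM in WT 2-cell embryos and 1.32 and 1.0 FPKM in cKO, at least 5.16-fold lower by the means. Smart-seq2 keeps no strand, so transcripts of Msx1as and of Msx1, a gene of tooth and craniofacial development, cannot be told apart where they overlap.

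Pbx4 and Irx5 were less uniform. Pbx4, a partner of Hox proteins expressed in testis, measured 14.1 and 17.4 FPKM in WT 2-cell embryos and 8.02 and 2.2 FPKM in cKO, 3.09-fold lower by the means. In limma with Benjamini-Hochberg its log2 difference was -1.64 with an adjusted p of 0.0526, lower in 2 of 2 libraries, so the call by the fold rule was not matched. The fold rule's call was lost after median-ratio scaling, at a log2 ratio of -1.23, without WT replicate 2, at -1.47, and without cKO replicate 2, at -0.98, whereas limma with Benjamini-Hochberg called it without cKO replicate 1, at a log2 difference of -2.38. Irx5, a gene of heart and retina, measured 2.23 and 3.85 FPKM in WT and 2.63 and 1.0 FPKM in cKO, and the groups overlapped. Without cKO replicate 1 its log2 ratio was -1.60, past the fold rule.

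Meis2 was lower in cKO on top of its fall from the zygote. It measured 47.9 and 77.1 FPKM in WT 2-cell embryos and 17.2 and 10.3 FPKM in cKO, 4.54-fold lower by the means. Limma with Benjamini-Hochberg gave a log2 difference of -2.11 with a standard error of 0.32 and an adjusted p of 0.0061, lower in 2 of 2 libraries. The cKO libraries were thus below both WT libraries, in a transcript that was at 238 FPKM or more in every zygote library.

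Of the paired-domain genes, Pax6, which directs eye development, was called lower. It measured 11.5 and 11.2 FPKM in WT 2-cell embryos and 1.94 and 1.27 FPKM in cKO, 7.07-fold lower by the means. In zygotes Pax6 was at 3.8 and 2.27 FPKM in WT and at 1.0 and 1.47 FPKM in cKO. Its zygote groups thus did not overlap either, at low levels.

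The T-box genes had 4 of 7 members called lower with deposited values, 2 with median-ratio scaling and 5 with sum scaling, beside 1940, 905 and 2413 of all 14392 genes. Tbx19, a pituitary gene, measured 22.1 and 14.1 FPKM in WT zygotes, 14.5 and 13.5 FPKM in cKO zygotes, 20.3 and 22.5 FPKM in WT 2-cell embryos and 3.33 and 2.17 FPKM in cKO 2-cell embryos. Its mean was 7.79-fold lower in cKO 2-cell embryos, with a log2 difference of -2.60, a standard error of 0.29 and an adjusted p of 0.00269 in limma with Benjamini-Hochberg, lower in 2 of 2 libraries. Both cKO 2-cell libraries lay below every other library. Tbx21, the T helper cell regulator T-bet, went from the floor in zygotes to 5.7 and 4.97 FPKM in WT and 1.12 and 1.0 FPKM in cKO 2-cell embryos.

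Tbx20, a heart gene, measured 6.5 and 11.2 FPKM in WT 2-cell embryos and 1.61 and 4.27 FPKM in cKO, and its call was lost after median-ratio scaling, at a log2 ratio of -1.04, without WT replicate 2, at -1.15, and without cKO replicate 1, at -1.05. Tbx4 measured 6.52 and 7.38 FPKM in WT and 2.03 and 1.47 FPKM in cKO, and its log2 ratio after median-ratio scaling was -1.52, short of the fold rule. Tbx3 did not pass the fold rule, at 15.0 and 16.8 FPKM in WT and 6.23 and 4.82 FPKM in cKO, but limma with Benjamini-Hochberg gave a log2 difference of -1.38 with an adjusted p of 0.00518, lower in 2 of 2 libraries. It passed the fold rule without cKO replicate 1, at a log2 ratio of -1.72, and without WT replicate 1, at -1.61.

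Among Fox and Sox genes 3 of 22 and 2 of 11 members were called lower by the fold rule as deposited, and 0 and 1 after median-ratio scaling. The Fox share, 13.6%, was near the 13.5% of all genes, and the Sox share was 18.2%. Sox18, a gene of blood and lymphatic vessels, measured 5.37 and 7.62 FPKM in WT 2-cell embryos and was at the floor in cKO, at least 6.5-fold lower. Foxi3, a gene of ear and tooth development, measured 3.14 and 12.7 FPKM in WT and 3.48 and 1.0 FPKM in cKO, so its groups overlapped. Its call by the fold rule was lost without WT replicate 2, at a log2 ratio of -0.48, without cKO replicate 2, at -1.18, and after median-ratio scaling, at -1.42. Foxr1 measured 142 and 90.2 FPKM in WT and 113 and 288 FPKM in cKO, and Sox15 75.0 and 52.9 FPKM in WT and 55.6 and 102 FPKM in cKO. The groups of Foxr1 and Sox15 overlapped.

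Few members had higher values in cKO as deposited. Both cKO 2-cell libraries were above both WT libraries for 2 members, Gata1 and Sox21, against 14.0% of all genes, and below both for 56, against 43.4% of all genes. Gata1 measured 65.1 and 72.3 FPKM in cKO 2-cell embryos against 33.3 and 24.1 FPKM in WT, 2.39-fold higher by the means, and past the fold rule after median-ratio scaling, at a log2 ratio of 1.75. In limma with Benjamini-Hochberg its log2 difference was 1.25 with a standard error of 0.23 and an adjusted p of 0.0117, higher in 2 of 2 libraries. For Sox21 limma with Benjamini-Hochberg gave a log2 difference of 0.95 with an adjusted p of 0.00604, higher in 2 of 2 libraries, with WT at the floor. Sox21 is in the table only through the cKO 2-cell libraries, which fixes its direction. Its other groups have no measured spread, so its standard error is too small and its p is no support for the difference.

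The mean of cKO 2-cell embryos was at least that of WT for 12 members, which included Sox13 and Gata4, both chosen after their values were seen. Sox13 measured 7.08 and 2.59 FPKM in WT 2-cell embryos and 20.7 and 4.42 FPKM in cKO. Gata4, a heart and endoderm gene, measured 38.6 and 32.2 FPKM in WT and 52.4 and 30.0 FPKM in cKO. In both genes the groups overlapped.

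**Figure D3:**
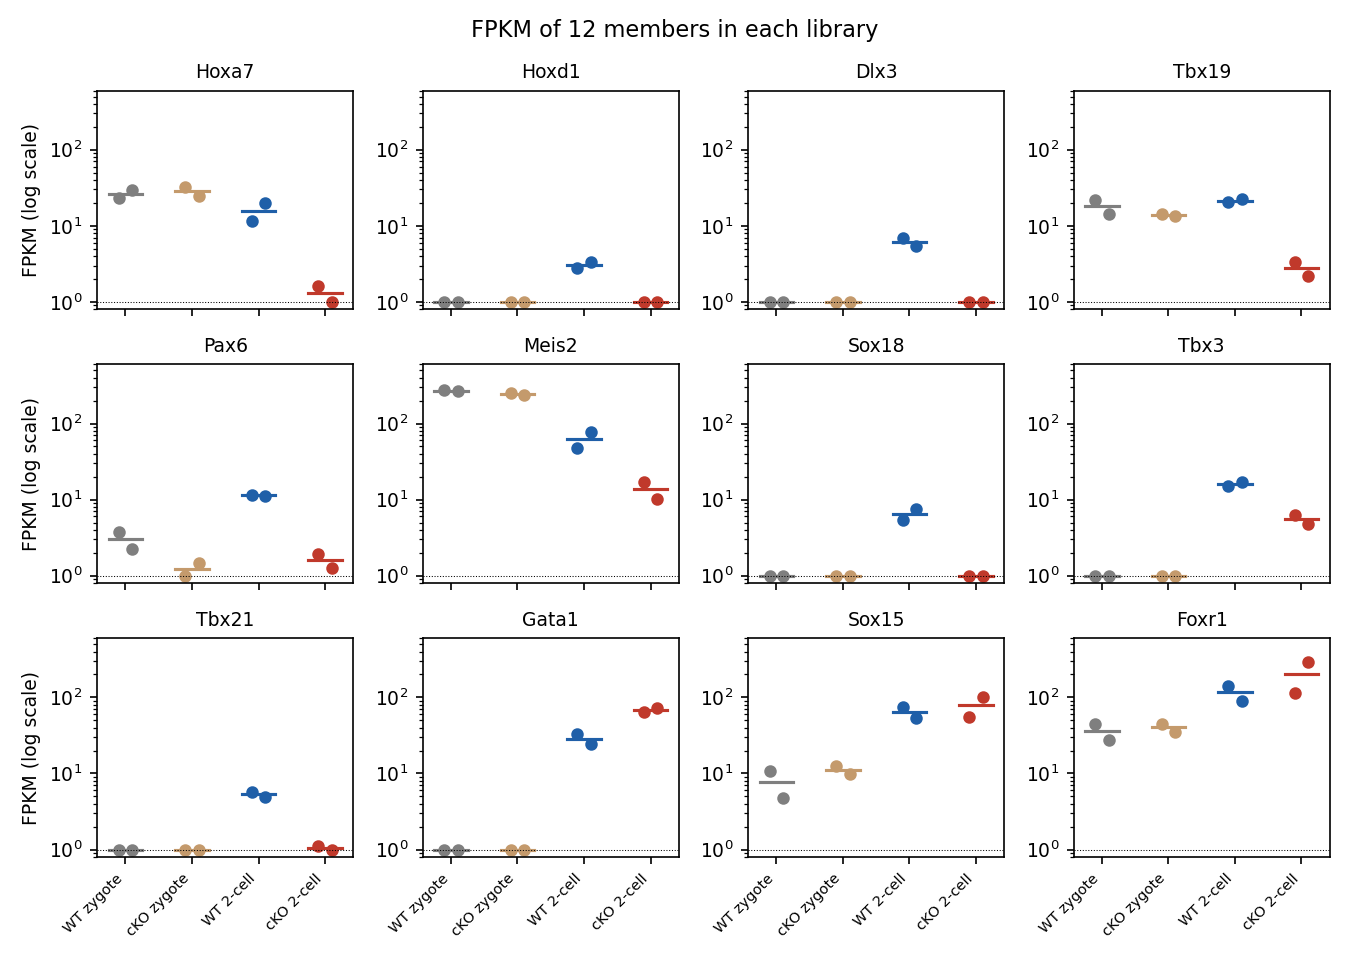
FPKM on a log scale of 12 members in the 4 groups, with 1 point per library, the group mean as a short line and the floor as a dotted line. Dlx3 stands at 6.98 and 5.36 FPKM in the WT 2-cell libraries and at the floor in the other 6.

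The interaction of genotype and stage in limma, at a Benjamini-Hochberg adjusted p under 0.05, called 25 of 85 members, 29.4%, against 11.8% of all genes. Of the 25, however, 21 were at the floor in all 4 zygote libraries, as were 67.1% of the members and 26.2% of all genes. For these the zygote effect is 0 by the floor, and the interaction repeats the 2-cell effect. Of the 28 members above the floor in a zygote library 4 were called, 14.3% against 10.8% of all such genes, a share near that of the table. Hoxa7, one of the 4, had an interaction of -2.91 on the log2 scale with an adjusted p of 0.0185 in limma with Benjamini-Hochberg, lower in 2 of 2 cKO 2-cell libraries. Leaving out any 1 zygote library left 0 members past the adjusted threshold in limma, and between 28 and 32 lower plus 2 higher at an unadjusted p under 0.05. Without WT 2-cell replicate 1 or replicate 2 the count rose above 25. For fits without 1 library no share of all genes is given, so these counts are not set against the table.

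Transcription factors of other families were counted in the same way. Of 89 developmental genes in a list that included Lhx, Zic, Otx and Neurog genes, 44 were listed, with Mesp2, a somite gene, the most abundant. Of the 44, 12 were over 3-fold lower in cKO 2-cell embryos and 0 higher, 27.3% lower against 13.5% of all genes, and limma called 20 lower and 0 higher, 45.5% lower against 24.6%. The floor in both cKO and above it in both WT libraries held for 15 of the 44, beside 8.78% of all genes. The median log2 ratio over all 44 was -1.06, beside -0.38 over all genes. Of the 44, however, 25 were at the floor in all zygote libraries, beside 26.2% of all genes. These 25 are in the table only through a 2-cell library, so the counts are no measure of the list. The FPKM of the 44 summed to 244, 237, 266, 255, 273, 303, 157 and 102 over the WT zygote, cKO zygote, WT 2-cell and cKO 2-cell libraries in that order. Lower calls in cKO 2-cell embryos were thus found outside the 13 families too, at deposited scaling.

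Most Polycomb subunits were listed. Of 22 subunits of Polycomb repressive complex 1, which ubiquitinates histone H2A, 19 were listed, and 3 were over 3-fold lower and 0 higher in cKO 2-cell embryos, 15.8% lower against 13.5% of all genes. Of 12 subunits of Polycomb repressive complex 2, which methylates histone H3, 11 were listed, with 1 lower and 0 higher, 9.09% lower. By the fold rule both shares were near that of the table. Limma called 26.3% of complex 1 and 9.09% of complex 2 lower, against 24.6% of all genes. It called 1 gene of each complex higher. The 3 lower in complex 1 were Cbx2, Yaf2 and Scmh1, by 4.04-fold, 3.05-fold and 7.12-fold, and in complex 2 it was Phf1, by 5.54-fold. The most abundant were Pcgf1 and, for complex 2, Rbbp7. Pcgf1 went the other way, with 220.0 and 182 FPKM in WT and 484 and 539 FPKM in cKO 2-cell embryos. It was the largest part of the complex 1 sums in cKO 2-cell embryos. Summed FPKM for complex 1 was 2341, 1859, 2301, 2099, 1360, 1395, 1508 and 1500 in the library order above, and for complex 2 it was 2747, 2678, 2443, 2537, 834, 795, 861 and 764. Their part in the members' levels was not tested.

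The labels were checked against marker genes. All 10 maternal oocyte genes were listed, with Dppa3 the most abundant, and their FPKM summed to 16353, 17805, 17305, 18057, 9026, 7413, 7032 and 11404 in the same order. Of these, 2 were over 3-fold lower and 0 higher in cKO 2-cell embryos, 20.0% lower against 13.5% of all genes. Limma called 50.0% lower, against 24.6%, and 1 gene higher. Dppa3, the largest part of the cKO 2-cell sums, measured 2958 and 2472 FPKM in WT and 5888 and 8774 FPKM in cKO 2-cell embryos. The median log2 ratio over the 10 genes was -0.87. Of 10 markers of the 2-cell stage 7 were listed, with Zfp352 the most abundant, and 4 were lower and 0 higher in cKO, 57.1% lower by the fold rule and 71.4% in limma. Their sum was 9.53, 8.45, 12.1 and 9.51 FPKM in the zygote libraries, 746 and 1064 FPKM in WT 2-cell embryos, and 244 and 390 FPKM in cKO 2-cell embryos. In both genotypes the 2-cell markers were higher in 2-cell libraries than in zygotes, and both cKO sums were below both WT sums. The part of embryo stage in the members' levels was not tested.

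Markers of other cells were mostly not listed. Of 14 cumulus and granulosa cell genes 3 were listed, Amhr2 the most abundant with 29.5 and 32.7 FPKM in WT 2-cell embryos, and 11, Fshr and Lhcgr among them, were not. The 3 listed genes summed to 28.7, 24.3, 24.8, 24.6, 32.4, 41.9, 20.4 and 20.1 FPKM in the same order. Amhr2 and Tnfaip6 were at the floor in all zygote libraries. Cyp19a1 went the other way, at 26.7, 22.3, 22.8 and 22.6 FPKM in zygotes and 1.0, 1.78, 1.0 and 1.0 FPKM in 2-cell embryos. The sum is thus no single signal of these cells. Of the 3 genes 1 was lower and 0 higher in cKO 2-cell embryos, 33.3% lower against 13.5% of all genes. Of 8 sperm genes 4 were listed, with Prm2 the most abundant and sums of 23.1, 16.5, 19.7, 18.7, 7.28, 11.4, 4.97 and 4.0 FPKM, and 1 of these 4 was lower and 0 higher.

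Of 6 oviduct genes 4 were listed, with Rsph1 the most abundant and sums of 4.0, 4.0, 4.03, 4.0, 20.5, 15.7, 12.5 and 4.01 FPKM in the same order, and 0 were lower or higher, against 13.5% lower of all genes. Of 4 blood genes 1, Hba-a1, was listed, at 8.66 FPKM in 1 WT 2-cell library and 1.99 FPKM in 1 cKO 2-cell library, and it was called lower. In the remaining 6 libraries it did not exceed 1 FPKM. Ptprc and Hbb-b1 were not listed. The part of these cells in the members' levels was not tested.

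The promoters of 4 members are shown as the DNA that lies just upstream of the genes that differed most in either direction between cKO and WT 2-cell embryos, by the rule given next. RefSeq promoter sequences could be matched for 59 of the 85 members, so no comparison of base composition over the members is given. Among matched members whose groups did not overlap, Hoxa7 and Tbx19 had the lowest ratio of cKO to WT, and Gata1 and Sox21 were those with both cKO libraries above both WT libraries. Each sequence holds the 250 bases before the start of the gene on build GRCm38.p6, 5′ to 3′ on the gene's own strand, which was the minus strand in all 4. Capitals mark CG, read on both strands as it is its own reverse complement, which 92.1% of 32851 promoters of this length held, with a median of 6.0 copies.
Hoxa7: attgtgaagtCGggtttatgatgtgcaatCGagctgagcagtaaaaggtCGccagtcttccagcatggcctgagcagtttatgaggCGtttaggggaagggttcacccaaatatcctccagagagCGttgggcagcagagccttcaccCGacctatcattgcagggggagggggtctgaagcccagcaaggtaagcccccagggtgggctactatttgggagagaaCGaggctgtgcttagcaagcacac
Tbx19: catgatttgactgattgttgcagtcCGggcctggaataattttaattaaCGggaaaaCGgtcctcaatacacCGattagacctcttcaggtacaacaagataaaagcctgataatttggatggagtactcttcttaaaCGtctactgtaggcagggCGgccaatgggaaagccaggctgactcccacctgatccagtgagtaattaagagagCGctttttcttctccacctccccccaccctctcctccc
Gata1: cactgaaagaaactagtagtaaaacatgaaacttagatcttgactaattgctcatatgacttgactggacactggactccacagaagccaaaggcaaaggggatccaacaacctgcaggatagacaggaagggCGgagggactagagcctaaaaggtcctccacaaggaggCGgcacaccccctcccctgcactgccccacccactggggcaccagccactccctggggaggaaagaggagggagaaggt
Sox21: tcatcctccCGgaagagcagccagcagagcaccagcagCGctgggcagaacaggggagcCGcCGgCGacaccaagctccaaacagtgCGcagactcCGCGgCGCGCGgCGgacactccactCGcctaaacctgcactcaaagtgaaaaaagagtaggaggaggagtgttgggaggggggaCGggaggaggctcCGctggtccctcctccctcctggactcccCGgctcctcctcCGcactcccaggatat
The Hoxa7 sequence lies at chr6:52218574-52218823 and holds 7 copies. The Tbx19 sequence lies at chr1:165160774-165161023 and holds 7 copies. The Gata1 sequence lies at chrX:7967911-7968160 and holds 2 copies. The Sox21 sequence lies at chr14:118237031-118237280 and holds 17 copies. A copy of CG in a window is a description of the sequence and says nothing on its methylation.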

How the data were processed

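The authors deposited FPKM per gene for the 8 libraries, made from reads trimmed to 50 bp and mapped to mm9 with TopHat2 2.1.1 and Cufflinks 2.2.1, with values under 1 set to 1 and genes under 1 in all libraries left out. The gene annotation and any further normalization were not stated. Members and lists were chosen with earlier results of these data known. Members were found by name, and 2 groups of 2 libraries were compared by a 3-fold difference of mean FPKM and by limma 3.58.1 (R 4.3.3, trend, log2(FPKM + 1), 4 groups in 1 model, 4 residual degrees of freedom, Benjamini-Hochberg over 14392 genes, adjusted p under 0.05). The interaction tested whether the genotype effect differed between stages. Counts at the floor have no test. Python 3.11.15, numpy 2.4.6 and pandas 2.3.3 were used. Fold rule, limma and depth estimate were tested on simulated data.

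Named were the most abundant member of each family, up to 10 members per direction and comparison past the fold rule without overlap, every Hox member, members at the floor in 1 genotype and above 3 FPKM in both libraries of the other at the 2-cell stage, and up to 10 members by interaction p. Lists held markers of oocyte, 2-cell embryo, cumulus and granulosa cells, sperm, oviduct and blood, subunits of both Polycomb complexes, and other developmental transcription factors. Alternatives covered the pseudocount, threshold, mean, scaling (median-ratio, sum, quantile), a filter on low values, the spread per group, blocking and leaving out each library. The relative depth was added after seeing the data, from the ratios of low FPKM values within genes, and the solution with the highest summed score over 8 starting libraries was kept. Some genes that fit the rules for members or for named members are not reported. Histone H2A ubiquitination samples were not analysed here.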

Additional observations from a re-analysis of the deposited data

Results flagged for a closer look

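For 14 named members the interaction of genotype and stage passed the test of limma with Benjamini-Hochberg over all genes, with the 2-cell effect lower in cKO in 2 of 2 libraries each. Among Hox genes the log2 interaction was -2.91 for Hoxa7, -0.99 for Hoxa3, -0.67 for Hoxb9, -0.5 for Hoxb13 and -1.02 for Hoxd1. For the other homeodomain genes it was -0.88 for Dlx2, -1.83 for Dlx3, -0.84 for Six4 and -1.96 for Meis2, and for the antisense transcript Msx1as it was -1.7. For T-box genes it was -2.27 for Tbx19, -1.62 for Tbx21 and -1.38 for Tbx3, and for the HMG box gene Sox18 it was -1.89. Sox21, which is not among the 14, passed too, with the 2-cell effect higher in cKO and a log2 interaction of 0.95. It is in the table only through the cKO 2-cell libraries, which fixes that direction. Each of the 14 was picked out because its interaction passed this test. Only Hoxa7, Meis2 and Tbx19 had zygote values above the floor. The other 11 were at the floor in all zygote libraries, so for them the interaction repeats the 2-cell effect and is no comparison of the stages. None of the 14 was called when any 1 zygote library was left out.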

How the results depend on the processing

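Over 3-fold lower in cKO 2-cell embryos were 24 members, and 12 with a pseudocount of 1, 42 at a 2-fold threshold, 10 when every library had to differ, 11 after median-ratio scaling and 15 among genes with a mean above 3. Higher were 0, and 3 at a 2-fold threshold and 2 after median-ratio scaling (0 to 2 when leaving out 1 library). In zygotes 0 were lower, and 1 at a 2-fold threshold (0 to 1 when leaving out 1 library), while 0 were higher under every alternative run. Higher in WT 2-cell embryos than in zygotes were 25, and 16 with a pseudocount, 16 when every library had to differ, 15 after median-ratio scaling and 13 with a mean above 3, and the 4 lower ranged from 3 to 6 over the alternatives run. In limma the 42 lower became 20 with a mean above 3, 24 after median-ratio scaling, 17 with quantile normalization, 18 with 1 spread per group and 0 from the 4 2-cell libraries alone, and the 2 higher became 1, 2, 2, 1 and 0 in that order (2 to 5 when leaving out 1 library). The 41 higher at the 2-cell stage in WT became 13 with a mean above 3, 27 after median-ratio scaling and 19 with quantile normalization (25 to 47 when leaving out 1 library), and the 7 lower became 12 with quantile normalization. The 25 with an interaction became 8 with a mean above 3, 14 after median-ratio scaling, 8 with quantile normalization and 16 with 1 spread per group (0 to 44 when leaving out 1 library). Members at the floor in both WT 2-cell libraries were 5, and 25 at a limit of 2 FPKM, 39 at 3 FPKM and 20 after median-ratio scaling (5 to 13 when leaving out 1 library). At the floor in both WT and above it in both cKO libraries was 1, and 0 at a limit of 3 FPKM (1 to 4 when leaving out 1 library), and the opposite held for 29, and 13 at 3 FPKM. Apart from the alternatives that test fewer genes or libraries, the cause was not tested. For single named members, no called log2 value changed sign, 256 fold settings were the same, 5 stronger and 21 weaker, and in limma 417 were the same, 11 stronger and 42 weaker.

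The labels do not say whether replicates of the same number were collected together. Blocking on replicate number, the fold rule gave 23 lower in cKO 2-cell embryos and 23 higher at the 2-cell stage in WT, and limma gave 40 lower, 2 higher, 38 higher by stage, 6 lower by stage and 17 with an interaction. With the cKO 2-cell numbers crossed, a pairing added after seeing the data, limma gave 40, 2, 41, 6 and 20 in the same order. Blocking ended the fold-rule calls of Hoxa3, at a log2 ratio of -1.56, and Hoxd8, at -1.53. Deviations of same-numbered libraries correlated over genes at 0.497 in zygotes and -0.239 in 2-cell embryos.

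With 2 libraries a group, a lone library left after another is left out is assumed to vary like the other groups. Depth in reads is unknown, so a value at the floor of 1 FPKM cannot be told apart from absence, and most members lie close to that floor.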
